A study of Mus musculus with 5 samples.

Results

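Tfap2b encodes AP-2β, a DNA-binding transcription factor of the AP-2 family. It was described here together with Tfap2a, Tfap2c, Sox10, Ret, Ednrb, Foxd3 and Erbb3, 8 genes grouped for their links to the neural crest and its early glia. The members were every probe set of these genes that the platform annotation assigned to exactly 1 gene symbol. They came to 19 probe sets and 8 genes, of 18193 genes with such a probe set on the array. The genes had been picked with the null against heterozygote values of these same arrays known, above all the higher null signal at one Tfap2b probe set and the overlapping values at the other. Differences between the genotypes are therefore given as a description, with standard errors and without p-values.

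The arrays measured RNA from dorsal pancreatic buds of C57BL/6J mouse embryos at embryonic day E10.5. Of the 5 arrays, 2 held Ptf1a heterozygous buds, which carry 1 intact copy of Ptf1a, and 3 held buds null for Ptf1a, so both groups carry the mutant allele and no wild-type bud was compared. Pools of 3 buds, cleared of mesenchyme by mechanical dissection, supplied the RNA for each array, which was amplified in 2 rounds from the poly(A) tail. Ptf1a, a basic helix-loop-helix factor required for pancreas formation, had log2 signals of 7.10 and 7.33 in heterozygotes and 5.21, 6.07 and 5.00 in nulls. Which stretch of Ptf1a the mutation removes is not in the labels, so these values are no check of genotype, and neither are the litters of the pools.

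Neural crest cells leave the dorsal neural tube, migrate through the embryo and give rise to peripheral neurons, glia, pigment cells and part of the head skeleton. AP-2 factors, Foxd3 and Sox10 are transcription factors of this lineage. Foxd3 and Sox10 keep crest cells multipotent, and Sox10 is later needed for glia. Ret is the receptor tyrosine kinase for GDNF-family ligands, Ednrb is the receptor through which endothelin 3 acts on crest cells, and Erbb3 is the neuregulin receptor of Schwann cell precursors. Crest cells that colonise the gut pass close to the pancreas and supply its nerves and glia. AP-2 genes and Ret are also active outside the crest, AP-2 genes in surface ectoderm and kidney and Ret in the nephric duct.

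The promoters of Tfap2b and Ednrb are shown because these genes had the largest differences among probe sets at which the genotype groups did not overlap. RefSeq entries on GRCm38.p6 were found for 4 of the 8 genes, Tfap2b, Tfap2a, Foxd3 and Ednrb. Each sequence holds the 250 bases before the start, 5′ to 3′ on the gene's strand. Capitals mark matches on either strand to the AP-2 motif GCCNNNGGC, to the E-box CANNTG and to the TC-box TTTCCC. The PTF1 complex, which contains Ptf1a, recognises an E-box and a TC-box that lie a short, fixed distance apart. The motifs were searched separately, with no rule on spacing, so matches to both are not such an element.
Tfap2b, chr1:19211804-19212053, plus strand: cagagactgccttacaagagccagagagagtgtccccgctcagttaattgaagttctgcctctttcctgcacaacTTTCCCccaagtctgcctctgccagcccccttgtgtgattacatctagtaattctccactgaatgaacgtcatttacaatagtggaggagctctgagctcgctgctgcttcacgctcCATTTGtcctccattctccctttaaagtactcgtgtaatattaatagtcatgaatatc
Ednrb, chr14:103843702-103843951, minus strand: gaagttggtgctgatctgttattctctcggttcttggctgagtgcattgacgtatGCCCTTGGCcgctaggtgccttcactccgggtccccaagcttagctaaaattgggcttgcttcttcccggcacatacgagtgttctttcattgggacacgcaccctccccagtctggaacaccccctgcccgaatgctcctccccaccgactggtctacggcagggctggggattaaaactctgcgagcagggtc
The Tfap2b window held 1 E-box, with its first base 58 bases before the start, and 1 TC-box, 175 bases before it, which is too far apart for the spaced pair. It held 0 matches to the AP-2 motif. The Ednrb window held 1 AP-2 match, 195 bases before the start, and 0 matches to the other motifs. Of 32851 promoter windows of this length, 13.7% held the AP-2 motif, 66.2% an E-box and 21.9% a TC-box. No matches overlapped one another in the windows shown. Both Tfap2a windows held 1 TC-box each, and the Foxd3 window held 1 E-box.

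Signal was read as log2 intensity after quantile normalisation. The 27 probe sets for bacterial (Bacillus subtilis) control transcripts gave each array its own background level, their 95th percentile, which lay between 3.03 and 3.29. Of the 19 member probe sets, 5 were above background on all arrays, 2 on none, and 12 on some. On heterozygote replicates 1 and 2, 12 and 9 were above it, and on null replicates 1, 2 and 3, 14, 10 and 16. Of all probe sets tested, between 60.9% and 65.2% per array were above it. Heterozygote replicate 2 had the lowest share and the highest background level. With 5 arrays the precision of each value is limited. The pools were bulk tissue, so that fewer cells of a type and less RNA per cell cannot be told apart.

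Null signal was on average higher at 14 of the 19 probe sets and lower at 5, with a median log2 difference of 0.57, against -0.01 over all 45037 probe sets tested. Of all those tested, 22220 had a higher null mean. By the brightest probe set of each gene, 6 of 8 genes were higher in nulls, with a median of 0.87. With each gene represented by the median of its probe sets, the gene median was 0.52. Null and heterozygote values did not overlap at 3 of the 19 probe sets, and in each the nulls were higher. Over all probe sets 9.9% had non-overlapping groups with nulls higher and 10.1% with nulls lower, together 20%. Since the genes were picked on this contrast, nothing is read from these shares. limma called 0 of the 19 probe sets at an adjusted p under 0.05, and 0 (0%) of all 45037, with 2484 (5.52%) at an unadjusted p under 0.05. With a prior variance that follows signal level, limma called 8 probe sets in all (0.0178%), 0 of them members, with 2219 (4.93%) at an unadjusted p under 0.05. With every value raised to at least background the median was 0.28 over 17 probe sets, of which 13 were higher in nulls, and with 16 added before the logarithm it was 0.25. With an array left out it ranged from 0.40 without heterozygote replicate 2, with 12 of 19 higher, to 0.95 without null replicate 2, with 17 of 19 higher.

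**Figure D1:**
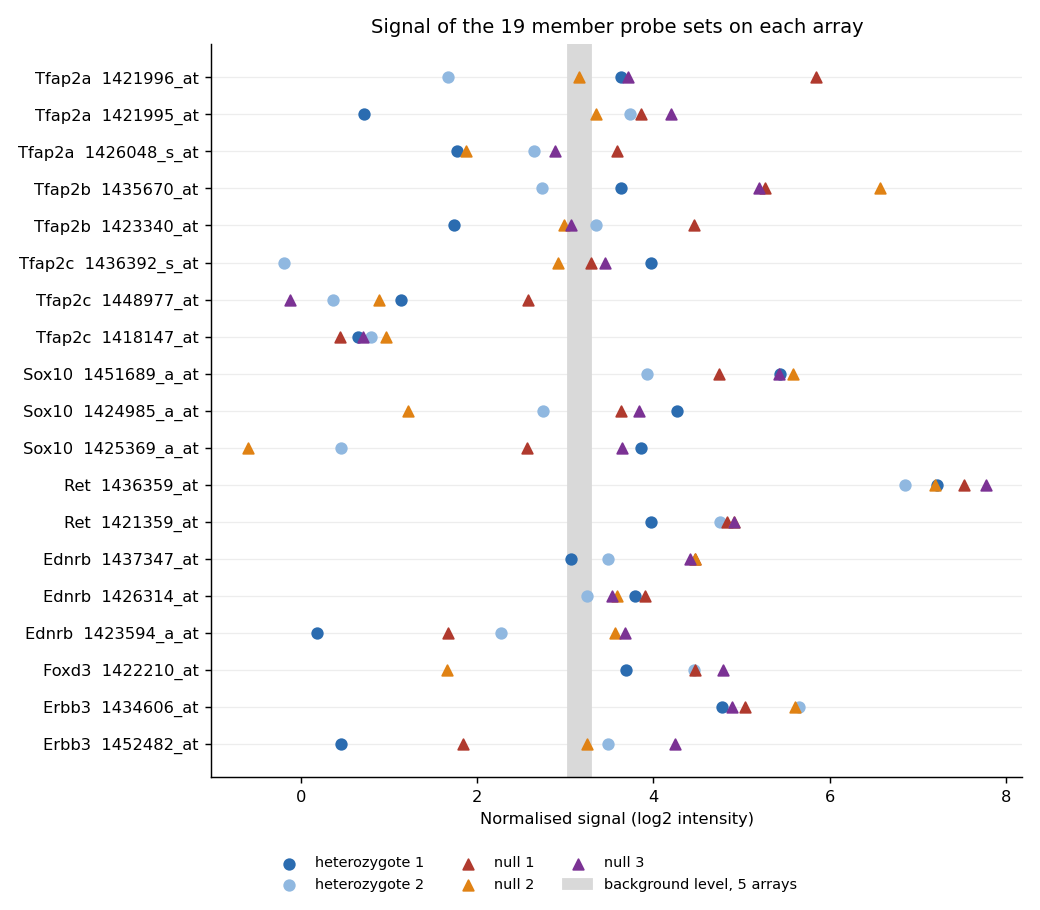
Normalised log2 intensity (horizontal axis) of the 19 member probe sets on each of the 5 arrays, with circles for heterozygotes, triangles for nulls and a grey band for the range of the background level, 3.03 to 3.29. Points of the 2 genotypes separate at Tfap2b 1435670_at, Ednrb 1437347_at and, by 0.07, at Ret 1421359_at, and intermingle elsewhere.

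The brighter Tfap2b probe set, 1435670_at, gave the widest separation of any member. In the order of replicate numbers, kept throughout, its log2 signals were 3.63 and 2.74 in heterozygotes and 5.27, 6.57 and 5.20 in nulls. All nulls lay above both heterozygotes, with a gap of 1.57 between the lowest null and the highest heterozygote. Heterozygote replicate 1 was above background and heterozygote replicate 2 was below it, whereas all 3 nulls were above it. The means were 3.19 ± 0.63 (SD, n = 2) and 5.68 ± 0.77 (SD, n = 3), a log2 difference of 2.49 with a standard error of 0.61, or 5.64-fold. On the deposited linear scale the intensities were 13.8 and 6.01 in heterozygotes and 42.7, 73.5 and 37.6 in nulls, so the heterozygote end of the difference rests on dim values. With heterozygote replicate 2 and every other dim value raised to background the log2 difference was 2.22, and with 16 added before the logarithm it was 1.43.

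The other Tfap2b probe set, 1423340_at, did not separate the genotypes. It read 1.74 and 3.35 in heterozygotes and 4.46, 2.98 and 3.07 in nulls. Heterozygote replicate 2 lay above 2 of the 3 nulls, and 3 of 5 arrays were above background, heterozygote replicate 2 and null replicate 3 barely so. The means were 2.55 ± 1.14 (SD, n = 2) and 3.50 ± 0.83 (SD, n = 3), and the log2 difference was 0.95 with a standard error of 0.75. With values raised to background it was 0.37, and without heterozygote replicate 1 it was 0.15, without heterozygote replicate 2 1.74 and without null replicate 1 0.48.

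Both Tfap2b probe sets placed the null mean above the heterozygote mean but ordered the arrays differently. Null replicate 2 was the highest array at 1435670_at and the lowest null at 1423340_at. The first minus the second was 1.89 and -0.61 in heterozygotes and 0.81, 3.60 and 2.13 in nulls. As a measure of agreement, each profile was centred on its own mean and the root mean square difference over the 5 arrays was taken, which was 1.40 for this pair on the log2 scale. Among 5783 genes with at least a pair of probe sets whose means were above background, the same measure between the brightest pair had a median of 0.46, a 10th percentile of 0.18 and a 90th percentile of 1.01. The mean of 1423340_at over the arrays, 3.12, was just below the mean background level of 3.13, so the Tfap2b pair was not among those genes. The files do not say which part of the transcript either probe set matches.

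**Figure D2:**
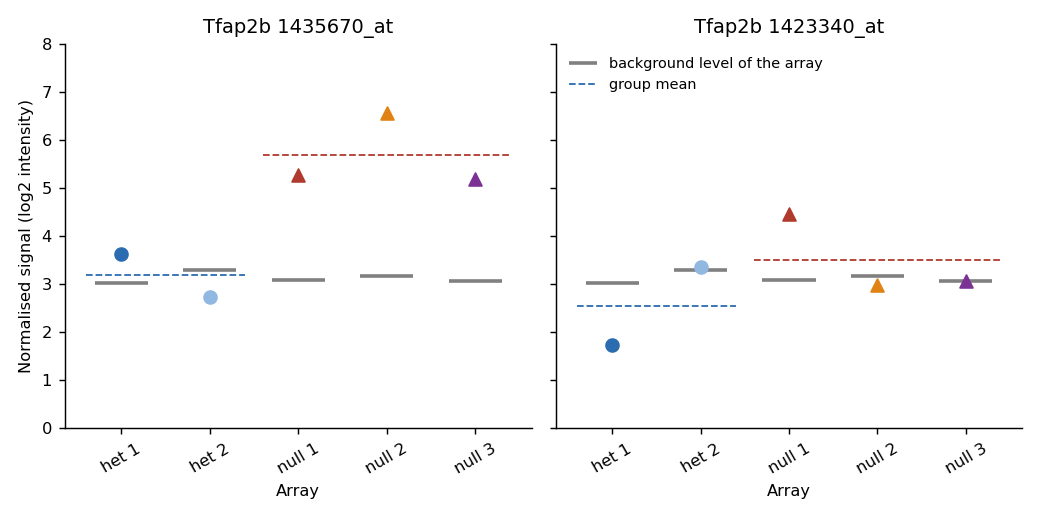
Normalised log2 intensity of both Tfap2b probe sets on each array, with the background level of each array as a grey bar and group means as dashed lines. At 1435670_at the nulls read 5.20 to 6.57 and the heterozygotes 2.74 and 3.63, while at 1423340_at most arrays sit near background and the groups overlap.

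Tfap2a encodes AP-2α, which acts with AP-2β in early crest cells, and its 3 probe sets had overlapping groups. 1421996_at read 3.63 and 1.67 in heterozygotes and 5.85, 3.15 and 3.71 in nulls. 1421995_at read 0.71 and 3.73 in heterozygotes and 3.86, 3.35 and 4.20 in nulls. The low heterozygote was replicate 2 at the first and replicate 1 at the second, so the probe sets did not single out the same array. Their log2 differences were 1.59 and 1.58, with standard errors of 1.06 and 0.97. At 1421995_at leaving out heterozygote replicate 1 gave 0.07 and leaving out heterozygote replicate 2 gave 3.09, and at 1421996_at leaving out heterozygote replicate 2 gave 0.60 and null replicate 1 gave 0.78. The third, 1426048_s_at, was above background only on null replicate 1 (3.59), and no fold is given for it. The ending _s_at means that this probe set can match more than 1 transcript.

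Tfap2c encodes AP-2γ, a factor of trophoblast, germ cells and ectoderm, and was hardly detected. 1448977_at and 1418147_at were not above background on any array, and no fold is given for them. 1436392_s_at read 3.97 and -0.19 in heterozygotes and 3.29, 2.92 and 3.45 in nulls. Its highest and its lowest arrays were both heterozygotes, and its difference of 1.33 became -0.75 without heterozygote replicate 2. With values raised to background it was -0.33. Of the 8 AP-2 member probe sets, 0 were above background on all arrays.

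Sox10 was above background on all arrays at 1451689_a_at alone, where it read 5.44 and 3.93 in heterozygotes and 4.75, 5.58 and 5.43 in nulls. Heterozygote replicate 1 lay within the range of the nulls. The log2 difference was 0.57 with a standard error of 0.60, but -0.18 when heterozygote replicate 2 was left out and 1.32 when heterozygote replicate 1 was. The other Sox10 probe sets differed the other way, by -0.62 at 1424985_a_at and -0.29 at 1425369_a_at. Both were highest on heterozygote replicate 1 (4.27 and 3.86) and lowest on null replicate 2 (1.22 and -0.60). Both changed sign when either of these arrays was left out.

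Foxd3 had 1 probe set, 1422210_at, with signals of 3.69 and 4.46 in heterozygotes and 4.47, 1.66 and 4.79 in nulls. Only null replicate 2 was below background, the same array that was lowest for those Sox10 probe sets and highest for Tfap2b 1435670_at. The log2 difference was -0.44 with a standard error of 1.08, and it was 0.57 without null replicate 2 and 0.07 with values raised to background.

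The receptor Ret was above background on all arrays at both of its probe sets. At 1436359_at it read 7.22 and 6.86 in heterozygotes and 7.53, 7.20 and 7.77 in nulls. The groups overlapped by 0.02, since null replicate 2 lay just below heterozygote replicate 1. The means were 7.04 ± 0.25 (SD, n = 2) and 7.50 ± 0.29 (SD, n = 3), a log2 difference of 0.46 with a standard error of 0.38. The other Ret probe set, 1421359_at, read 3.97 and 4.76 in heterozygotes and 4.83, 4.91 and 4.92 in nulls. All nulls were above both heterozygotes, by 0.07 at the nearest. Its difference was 0.52 with a standard error of 0.40, with 0.13 when heterozygote replicate 1 was left out and 0.91 when heterozygote replicate 2 was. The root mean square difference between the Ret profiles was 0.41, the smallest of the 15 pairs of probe sets within a member gene.

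Ednrb, the endothelin receptor, had the tightest null values of the members. At 1437347_at it read 3.07 and 3.48 in heterozygotes and 4.47, 4.47 and 4.42 in nulls. The nulls were all higher, by at least 0.94, and all 5 arrays were above background, with heterozygote replicate 1 only just so. The means were 3.28 ± 0.29 (SD, n = 2) and 4.46 ± 0.03 (SD, n = 3), a log2 difference of 1.18 with a standard error of 0.35, or 2.26-fold. With 16 added before the logarithm the difference was 0.56. The probe set 1423594_a_at differed by 1.75, with both heterozygotes and null replicate 1 below background, and by 0.28 with values raised to background. The third, 1426314_at, read 3.79 and 3.25 in heterozygotes and 3.90, 3.59 and 3.53 in nulls. It was above background on 4 arrays, and its overlapping groups differed by 0.16.

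Erbb3, which pairs with Erbb2 to transmit neuregulin signals, read 4.78 and 5.65 in heterozygotes and 5.04, 5.61 and 4.89 in nulls at 1434606_at. The nulls lay between the heterozygotes, and the log2 difference was -0.03 with a standard error of 0.47. It changed sign in 4 of 12 alternative settings and stayed between -0.47 and 0.40. The dimmer 1452482_at differed by 1.14, with heterozygote replicate 1 at 0.45, and by -0.38 without that array.

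**Figure D3:**
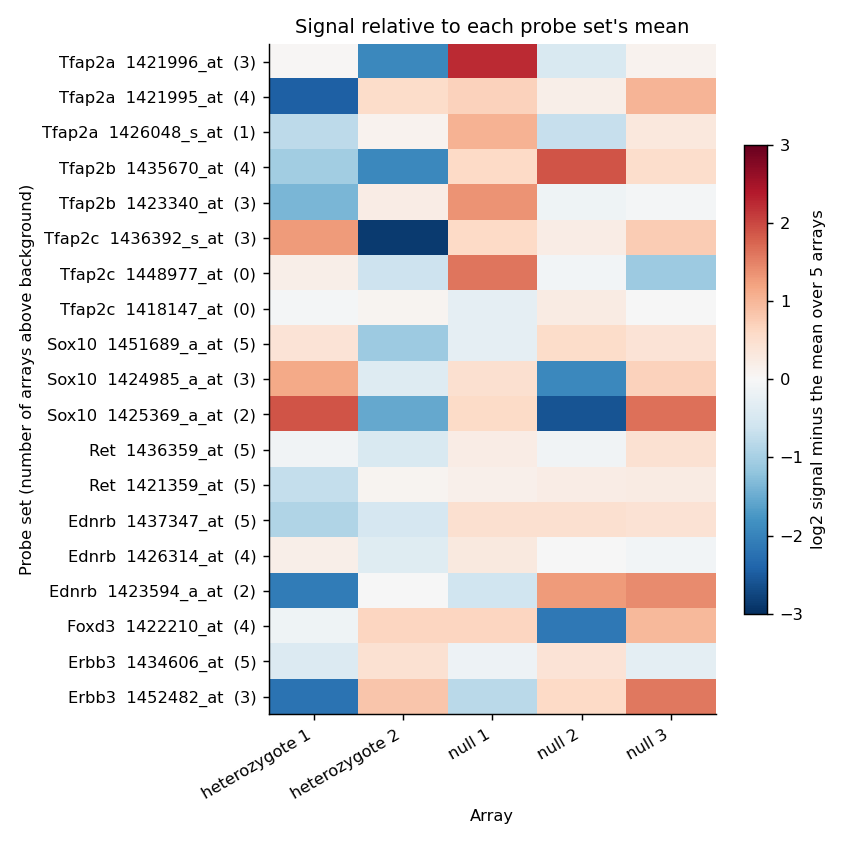
Log2 signal of each member probe set minus its own mean over the 5 arrays (red higher, blue lower), with the number of arrays above background in brackets. Null replicate 2 is reddest at Tfap2b 1435670_at and deep blue at Foxd3 and at a pair of Sox10 probe sets.

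The members did not share 1 profile over the arrays. The lowest array was heterozygote replicate 1 at 8 probe sets, heterozygote replicate 2 at 6, null replicate 2 at 3, and null replicates 1 and 3 at 1 each. Measured against Tfap2b 1435670_at, the nearest member profile was that of Ednrb 1437347_at, with a root mean square difference of 0.90. It was followed by Sox10 1451689_a_at at 1.04 and Ret 1421359_at at 1.20. The furthest were Sox10 1424985_a_at at 2.09, Foxd3 at 2.19 and Sox10 1425369_a_at at 2.45. The other Tfap2b probe set stood at 1.40, behind probe sets of 6 other members.

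Among 22284 probe sets with 1 gene symbol and a mean above background, the genes nearest to Tfap2b 1435670_at were Ttc7, Tpmt, Gmcl1, Cobl and Apoa1. Their root mean square differences over the 5 arrays were 0.14, 0.15, 0.23, 0.23 and 0.26. At the named probe sets of Ttc7, Tpmt, Gmcl1 and Cobl both heterozygotes were below background, and null signal was at least 1.99-, 2.29-, 1.82- and 1.99-fold higher. Higher nulls were built in there, since the genes were picked for likeness to a probe set with higher nulls. The means of Ttc7, Tpmt, Gmcl1 and Cobl exceeded background through the null arrays alone. All other probe sets of Ttc7 had a lower null mean, those of Tpmt and Gmcl1 went both ways with no group of nulls wholly higher, and the other probe set of Cobl had all nulls higher. Apoa1, which encodes the main protein of high-density lipoprotein, read 3.14 and 2.71 in heterozygotes and 4.90, 6.05 and 4.37 in nulls at 1455201_x_at. Its other 3 probe sets also had all nulls above both heterozygotes. Of these, 1 was above background on all arrays, with a log2 difference of 1.33, and the others were above it on 3 and 2 arrays, so that no size is given.

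Other genes of the AP-2 family and its cofactors showed 0 of 7 genes called by limma in either direction, and the groups of all 7 overlapped. Since limma called 0 of all 45037 probe sets, the 0 called here and in the lists below is no result about those genes. Over all probe sets 20% had groups without overlap, 9.9% with nulls higher and 10.1% with nulls lower. Counts of genes with or without overlap in these gene lists stand beside that share, and nothing is read from them. Their median log2 difference was 0.25, with 5 higher in nulls. It was 0.06 and 0 when heterozygote replicate 1 or heterozygote replicate 2 was left out, and -0.16 when each gene was represented by the median of its probe sets. The brightest were Kctd15, an inhibitor of AP-2 activity, at 8.27 and 7.68 in heterozygotes and 8.25, 8.27 and 8.16 in nulls, and Cited2, an AP-2 coactivator, with a difference of 0.01. Of the remaining AP-2 genes, Tfap2d was above background on 1 array and Tfap2e on none.

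Other neural crest factors gave 0 of 13 genes called, 8 with a higher null mean, and a median of 0.14. With an array left out the median lay between -0.11 without heterozygote replicate 2 and 0.24 without null replicate 3. Ets1, a factor of migrating crest and endothelium, differed by -0.13. Snai2, a repressor active when crest cells detach, read 7.59 and 5.79 in heterozygotes and 7.93, 8.06 and 7.27 in nulls, a difference of 1.07. Heterozygote replicate 2 stood apart from the other arrays there, and the groups overlapped. Zic1, chosen after its values were seen, was the 1 gene without overlap, and it was not above background on any array. Pax7 and Twist1 were not above it either.

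Schwann cell precursor and glia markers had a median of -0.32, with 0 of 9 called and 4 higher in nulls. Without heterozygote replicate 1 the median was 0.17, and with values raised to background 0.05. Fabp7, a fatty acid binding protein of glial precursors, read 4.68 and 5.18 in heterozygotes and 3.87, 3.71 and 4.21 in nulls, all nulls lower, with a difference of -1.0. Cdh19, a cadherin of crest-derived glia chosen after its values were seen, had all nulls higher and a difference of 0.67. The brightest, the myelin genes Mbp and Pmp22, differed by -0.32 and -0.91 with overlapping groups.

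Enteric and autonomic neuroblast markers had a median of -0.02, with 0 of 13 called and 6 higher in nulls, and was 0.29 without null replicate 1. The groups of all 13 overlapped. The neurofilament genes Nefm and Nefl were the brightest and differed by 0.26 and -0.26. Signal from neuronal genes does not separate crest-derived neurons from other cells, since islet cells express several of them.

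Among ligands, co-receptors and partner receptors of Ret, Ednrb and Erbb3, 0 of 16 were called and 9 were higher in nulls, with a median of 0.09. Leaving out heterozygote replicate 1, heterozygote replicate 2 or null replicate 3 gave -0.13, -0.09 and -0.05. Gdnf, the ligand that activates Ret together with Gfra1, read 5.73 and 6.02 in heterozygotes and 5.39, 3.71 and 4.29 in nulls. All nulls were lower, with a log2 difference of -1.41 and a standard error of 0.60. Gfra1 and Gfra3, chosen after their values were seen, had all nulls higher, with differences of 0.56 and 0.29. Artn and Erbb4 also had no overlap but were not above background on any array. The brightest were Ece1, the protease that releases active endothelins, and Edn3, the ligand of Ednrb, with differences of 0.14 and -0.13 and overlapping groups.

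Melanoblast markers had a median of -0.39, with 0 of 7 called and 2 higher in nulls. The median was -1.05 without null replicate 1 and -0.13 without heterozygote replicate 2. Kit, the receptor for stem cell factor, and Mitf, the pigment cell master regulator, were the brightest and differed by -0.83 and -0.59 with overlapping groups. Pmel, chosen after its values were seen, was the 1 member without overlap, with nulls higher by 0.82.

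The labelled tissue was checked by markers of bud epithelium, of which all 9 measured were above background on all arrays. Their summed linear signal was 1199 and 1572 in heterozygotes and 862 to 1033 in nulls. The null mean was lower at 7 of the 9 and higher at 2, with a median of -0.43, and leaving out heterozygote replicate 1 or heterozygote replicate 2 gave -0.62 and -0.04. All nulls were lower at 4 of the 9, where 10.1% of all probe sets had nulls lower without overlap. These were Mnx1, Nkx6-1, Prox1 and Pdx1, pancreatic transcription factors with log2 differences of -2.68, -0.97, -0.70 and -0.51. The groups of the other 5, among them Foxa2 (-0.13) and Gata4 (0.55), overlapped. The single genes named from this and the following marker lists were chosen after their values were seen.

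Mesenchyme markers, like the members, were on average higher in nulls. Of 15 such genes 13 had a higher null mean, and 7 had no overlap, all higher in nulls, where 9.9% of all probe sets had nulls higher without overlap. The median was 0.65. The 7 without overlap included Postn, a matrix protein, with a log2 difference of 1.10, Acta2, smooth muscle actin, with 1.67, and the splanchnic factor Nkx3-2, at least 2.21-fold higher in nulls. At Acta2, heterozygote replicate 2 (2.36) was below background. The 2 genes with a lower null mean, Pdgfrb and Tcf21, differed by -0.90 and -0.26 with overlapping groups. The summed linear signal of the list was 783 and 1042 in heterozygotes and 1090 to 1463 in nulls. Of the 15 genes, 7 were above background on all arrays, and Twist1 alone was not above it on any. Relative to each gene's mean, the median of the list was -0.22 and -0.57 in heterozygotes and 0.66, -0.06 and 0.55 in nulls. For the 19 member probe sets the same quantity was -0.12 and -0.37, and 0.49, 0.18 and 0.44. Both put the arrays in the same order, from null replicate 1 to heterozygote replicate 2. Tfap2b 1435670_at was highest on null replicate 2, the null array with the lowest mesenchyme median. Tfap2b 1423340_at was highest on null replicate 1, the array with the highest mesenchyme median. Since the members were picked on this contrast, medians higher in nulls were partly built in for them, and nothing is read from these orders. The part of mesenchyme in the members' differences, those of Tfap2b included, was not tested.

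Markers of other places where AP-2 genes or Ret are active were dim. Of 6 mesonephros and nephric duct genes, 4 had a higher null mean, with a median log2 difference of 0.64, which was 0.01 with values raised to background, -0.45 without heterozygote replicate 2 and 0.25 without null replicate 2. Of the 6, 0 were above background on all arrays, and Gata3 and Emx2 on none. Their summed signal was 35.7 and 87.3 in heterozygotes and 61.9 to 68.0 in nulls. Lhx1 was lower in all nulls (log2 difference -1.08) and Osr1, also on the mesenchyme list, was at least 1.2-fold higher in nulls. Of 5 surface ectoderm genes, 0 were above background on all arrays and Krt15 was on none, with summed signals of 38.1 and 44.9 against 29.4 to 42.0. The median of these genes was -0.29 and lay between -0.68 without heterozygote replicate 2 and 0.23 without heterozygote replicate 1 when an array was left out. Krt5 was higher in all nulls and Trp63 and Grhl3 were lower in all nulls, both below background on all 3. Null Grhl3 signal was at least 1.40-fold lower. Their part in the Tfap2b difference was not tested. Red cell markers had a median of -1.05 over 4 genes, with a lower null mean at all 4. All nulls were lower at 3, where 10.1% of all probe sets had nulls lower without overlap. These were Hba-x, Alas2 and Hbb-bh1, with log2 differences of -1.31, -1.29 and -0.81. Hbb-y, the brightest, differed by -0.06 with overlapping groups. Neural tube markers had a median of 0.01 over 5 genes, which was -0.58 without null replicate 2 and 0.42 without null replicate 3. That median of 0.01 was the value of Olig2, above background on 1 array, and Sox1 was above it on none. Endothelial markers had a median of -0.30 over 5 genes, and with an array left out it lay between -0.71 without null replicate 3 and 0.09 without null replicate 2.

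**Figure D4:**
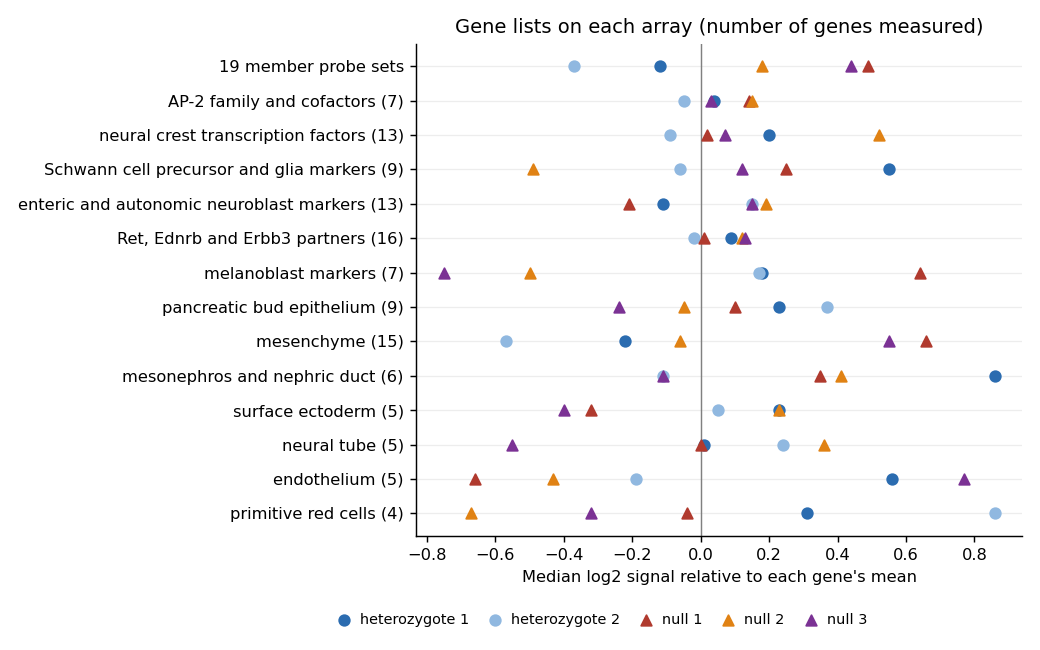
Median log2 signal of each gene list relative to each gene's own mean, on each array, with the number of genes measured in brackets. The 19 member probe sets and the mesenchyme list have their highest values on null replicate 1 (0.49 and 0.66) and their lowest on heterozygote replicate 2 (-0.37 and -0.57).

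Across the alternative settings, Tfap2b 1435670_at kept a positive difference of 1.43 to 2.92, and Ednrb 1437347_at one of 0.56 to 1.37. With an array left out, a positive sign was fixed by the lack of overlap. Both Ret probe sets were positive in each setting, at 0.29 to 0.64 and 0.13 to 0.91. Tfap2b 1423340_at ranged from 0.15 to 1.74.

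**Figure D5:**
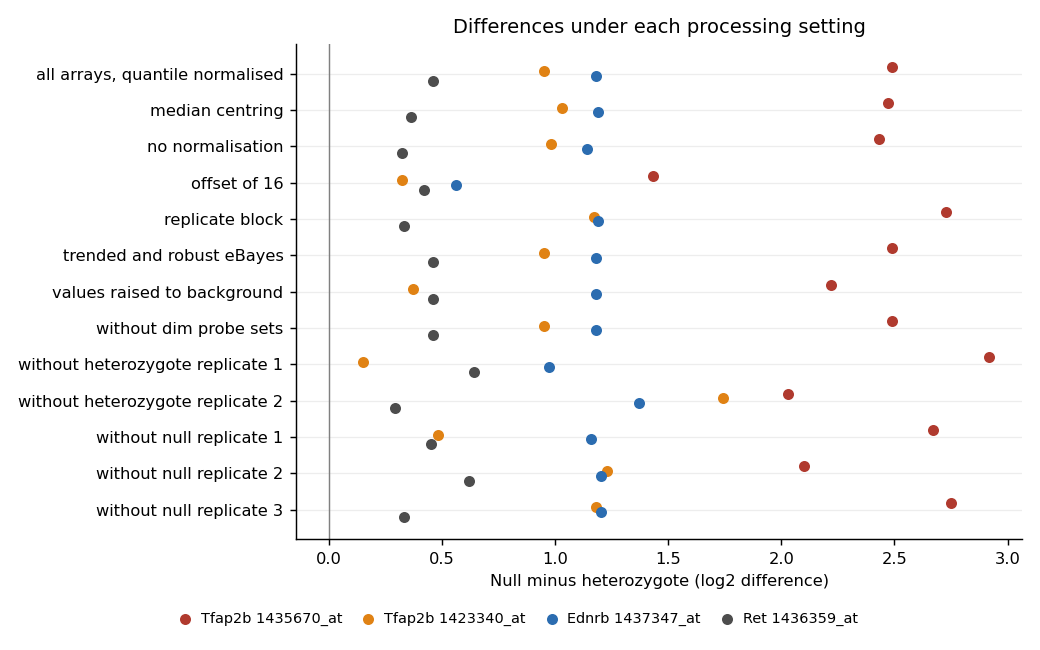
Log2 difference, null minus heterozygote (horizontal axis), of 4 probe sets under each processing setting, 1 row per setting. Tfap2b 1435670_at lies to the right of the others in each row, from 1.43 with the offset to 2.92 without heterozygote replicate 1, and Tfap2b 1423340_at reaches 0.15.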

How the data were processed

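The deposited table holds a linear intensity per probe set and array, 45101 probe sets on 5 Affymetrix mouse arrays, with array medians up to 0.354 apart in log2. GCOS and RMA are named, per the submitters' processing notes, without versions or roles, and the background treatment behind the values is unknown. Intensities were put on a log2 scale and quantile normalised. The 64 control probe sets were not tested. Gene names came from the platform annotation, matched by gene ID to RefSeq symbols for 34741 of 34945 probe sets with 1 symbol, with 0 names changed. limma 3.58.1 in R 4.3.3 (lmFit, eBayes, two-sided, Benjamini-Hochberg over 45037 probe sets, threshold 0.05) compared genotypes, and was tested on simulated data. p-values rest on the spread between arrays, moderated by eBayes over all probe sets. Each array held its own amplified pool, so differences between pools, amplifications and arrays are not separated. The litters of the pools are not given.

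The members, gene lists and settings were chosen with earlier results of these data known. Each listed gene stood for its brightest probe set. Named were all members, from each pathway list the 2 brightest genes and those without overlap, over 1 in log2 size and with the brighter group above background, and the 5 genes nearest to the brighter Tfap2b probe set. A fold is written "at least" where a group was at or below background on all its arrays, from the brighter group's mean against, per array, the higher of background and the measured value. The alternatives were a trended and robust prior, median centring, no normalisation, an offset of 16, values raised to background, only probe sets above background on at least 2 arrays, the replicate number as a block, and each array left out.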

Additional observations from a re-analysis of the deposited data

How the results depend on the processing

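With the untrended prior limma called 0 probe sets in each setting run, and with the trended and robust prior it called 8. The log2 difference at Tfap2b 1435670_at was 2.49, and 1.43 with the offset of 16; with an array left out it ranged from 2.03 to 2.92. At Tfap2b 1423340_at the range with an array left out was 0.15 to 1.74. Over the member probe sets and alternatives, 209 values moved by less than the spread between replicates and 14 by more. These counts are no measure of robustness. The trended prior and the omission of dim probe sets cannot change a difference. The spread was each probe set's own, so a noisy one could change sign within it. Erbb3 1452482_at did so, from 1.14 to -0.38 without heterozygote replicate 1. Without normalisation the median over all probe sets was -0.117, and 15 of 19 members were higher in nulls. Null and heterozygote arrays share replicate numbers 1 and 2, but the labels do not say that these pair the pools. Deviations of same-numbered arrays from their group means correlated at -0.0167 and 0.00804. With 2 heterozygotes, the deviation of each is the negative of the other's, so these are not separate checks and do not settle pairing. With the replicate number as a block (replicate block), limma called 0 probe sets, and the Tfap2b differences were 2.73 and 1.17. With values raised to background, or with the dim probe sets left out, members that were not above background on enough arrays had no value. Signal near background limits all AP-2 probe sets.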
